A study of Rattus norvegicus with 98 samples.

Results

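In the rat brain, 284178 windows of 1 kb carried H3K27ac in at least 1 library. Of these, 561 were occupied in most of the pooled libraries of 5 regions, grouped as hypothalamus and preoptic area, and in a small share of the other libraries. H3K27ac is acetylation of a lysine on histone H3, and peaks of it mark active promoters and enhancers. The 5 regions were LH (lateral hypothalamus), VMH (ventromedial hypothalamus), arc (arcuate nucleus), MPOA (medial preoptic area) and a region labelled PVN. A window was called occupied in a library when that library's peaks covered 500 bp or more of it. It was a member when it was occupied in 60% or more of the 16 libraries of these 5 regions (10 or more) and in 15% or less of the 76 libraries of 19 other regions (11 or fewer). These occupancies chose the members, so their levels are given as a description with no test.

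Male Long-Evans rats aged 2 months received fluoxetine, a selective serotonin reuptake inhibitor, at 18 mg per kg body weight in the drinking water for 6 weeks (FT), or water alone (Sham). Regions were punched from frozen sections, each replicate pooled tissue from several animals and took every region from that pool, so the error given here is between pools and libraries and not between animals. LH and VMH had 2 libraries per treatment, arc had 1 Sham and 2 FT libraries, MPOA had 2 Sham and 1 FT, and PVN had 1 of each. The 2 HB (habenula) libraries took no part in the choice.

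Hypothalamic nuclei govern feeding, body temperature, reproduction and the release of pituitary hormones. The arcuate nucleus senses circulating hormones of energy balance, the ventromedial hypothalamus takes part in satiety and defensive and sexual behaviour, and the lateral hypothalamus in arousal and feeding. The medial preoptic area controls sexual and parental behaviour. Distal enhancers differ between tissues more than promoters do, and acetylated enhancers are often used to tell brain regions apart. The tissue was bulk tissue, so a window carried by few cells and one carried weakly by many cannot be told apart. The study's own list of regions gives PVN as the paraventricular nucleus of the thalamus, whereas the choice of members placed it with the hypothalamus. The placement of its libraries is therefore given below, and the number of members, the held-out tests and the FT and Sham comparisons by library were also run without it.

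A library of the 16 held 20491 to 50619 peaks (median 46093), which occupied 25694 to 81046 windows. The shortest list was that of Sham MPOA replicate 2. The depth of the libraries is unknown, since the lists give peaks and no reads. The Sham HB library stood apart: its list named 549 chromosomes or scaffolds against 21 in all but 1 of the others, and it held 2 of the 561 members.

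The arcuate nucleus carried the members most fully, followed by VMH, LH, PVN and MPOA. In arc, the Sham library occupied 94.1% of the 561 windows and the FT libraries 96.8% and 89.1%. In VMH, the Sham libraries occupied 95.2% and 46.5% and the FT libraries 87.9% and 96.1%. All arc libraries and 3 of the 4 VMH libraries thus held most members, and the exception was Sham VMH replicate 2, whose list of 27433 peaks was the shortest of that region. In LH, the Sham libraries occupied 87.2% and 25.1% and the FT libraries 74.2% and 67.2%. The PVN libraries lay close together, at 57.0% (Sham) and 63.1% (FT). MPOA had the widest spread, with 34.0% and 4.99% in Sham and 81.5% in FT. The MPOA library at 4.99% was the one with the shortest list, and the low LH library had 32408 peaks against 47946 to 49887 in the other LH libraries. Neighbours in this order were not separated beyond their spread, since the range of each region overlapped that of the next.

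**Figure D1:**
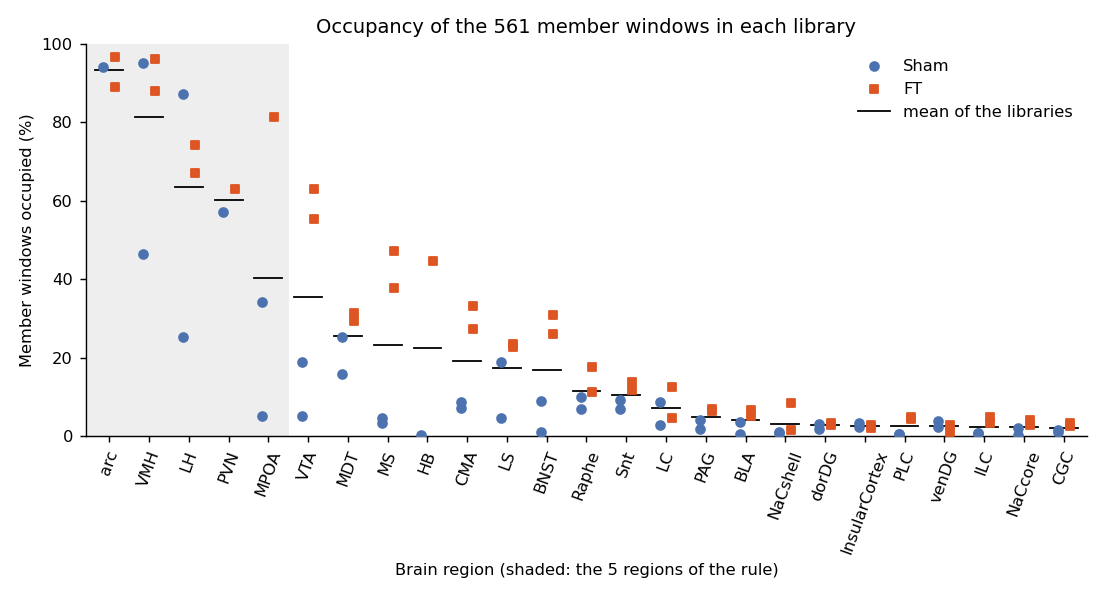
Share of the 561 member windows occupied (vertical axis, %) in each Sham (circles) and FT (squares) library, by brain region in order of the region mean (lines); the 5 shaded regions are those of the rule. The arc libraries sit between 89.1% and 96.8%, and MPOA libraries run from 4.99% to 81.5%. Among regions outside the rule, VTA, MDT and MS come highest.

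Members sat near the lower edge of the rule. Of the 561 windows, 261 were occupied in 10 of the 16 libraries, 153 in 11, 70 in 12, 49 in 13, 19 in 14 and 9 in 15. None was occupied in all 16. Among the other 76 libraries, 4 members were occupied in none, 31 in 2 or fewer, 450 (80.2%) in 6 or more and 100 in the 11 that the rule allows. Just outside it, 381 windows met the cap on other libraries but were occupied in 9 of the 16, and 102 windows met the floor but were occupied in 12 others. Membership also depended on list length. When every list was cut to its 19378 peaks of highest −log10 p, 296 windows met the same rule and 43 of them were among the 561, which is 7.66% of the 561 and 14.5% of the 296. The 561 are thus windows of the full lists.

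Every member was occupied in several of the 5 regions, which the floor of 10 libraries fixes, since no region has more than 4. A window was counted as held in a region when 50% or more of the region's libraries occupied it. By this count VMH held 551 members, arc 543, LH 478, PVN 413 and MPOA 183. The most frequent combination was LH, VMH, arc and PVN without MPOA, with 232 members (41.4%). A further 81 members were held in LH, VMH and arc alone, 78 in all 5 regions and 59 in the 4 regions other than PVN. Without LH, 42 were held in VMH, arc and PVN, and 36 in these 3 and MPOA. No member was held in a single region, a count that the floor of 10 libraries fixes. Every library of arc occupied 467 members, whereas every library of VMH occupied 232, of PVN 261, of LH 81 and of MPOA 15. These counts follow the number of libraries per region as well as their lists: arc has 3, PVN 2, MPOA 3 and the others 4.

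**Figure D2:**
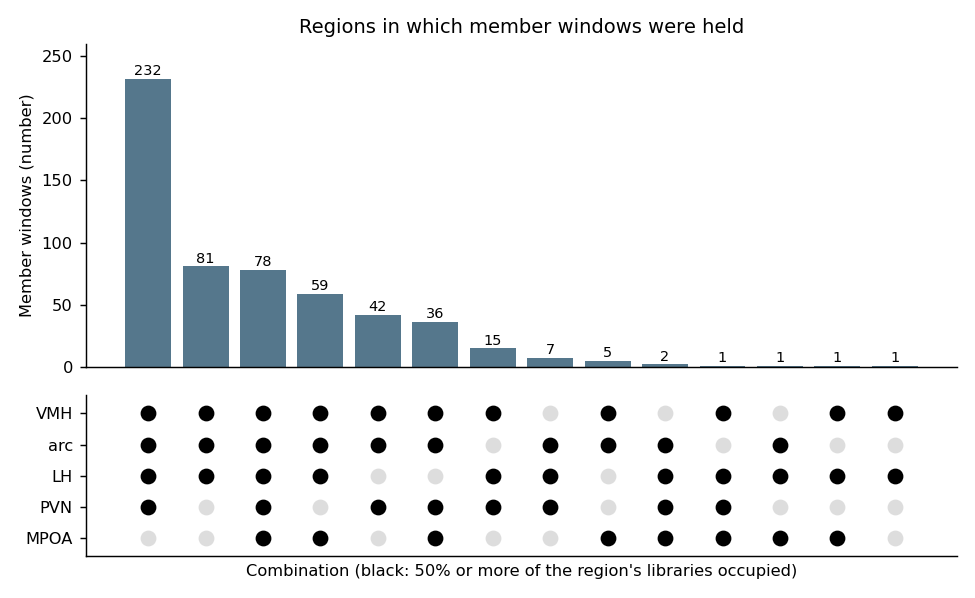
Number of member windows (bars) for each combination of the 5 regions in which they were held; black dots below a bar mark the regions where 50% or more of the libraries were occupied. The combination of LH, VMH, arc and PVN leads with 232 windows, and 78 windows were held in all 5 regions.

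The members with the widest contrast between the 2 sets of libraries illustrate these combinations. The window at chr4:57806001-57807000 (Rn5, as are all positions here) was occupied in 15 of 16 libraries and in 6 others. Only 1 MPOA library lacked it, and the window next to it was also a member. The resulting locus at chr4:57806001-57808000 lay 4 kb from a window occupied in 90% or more of all 92 libraries, here called a brain-wide window. The window at chr5:154820001-154821000 was also occupied in 15 libraries, with 7 others, of which 3 were VTA libraries. It likewise lacked 1 MPOA library. The window at chr6:138171001-138172000 was occupied in 15 and in 9 others, and lay farther from any brain-wide window, at 92 kb. At chr1:168604001-168605000, also in 15 libraries, all 3 MPOA libraries were occupied and the gap was in LH. The windows at chr1:136286001-136287000 and chr11:28309001-28310000 reached 15 libraries with 10 others each. For the first, all 4 MDT libraries were among the others, and for the second all 4 VTA libraries were. The window at chr5:152706001-152707000 was also occupied in 15 libraries, with 11 others. The window at chr3:168956001-168957000 had 14 libraries and 4 others, 2 of them MS. The window at chr19:52295001-52296000 had 14 libraries and 6 others, and 2 MPOA libraries lacked it.

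The 4 members that no library outside the 5 regions occupied were found on 4 chromosomes. The window at chr16:966001-967000 was occupied in 13 libraries: all of LH, VMH and arc, 2 of MPOA and neither of PVN. The other three sat at the floor of 10 libraries. At chr12:45838001-45839000 all VMH and arc libraries were occupied, with 1 each of LH, PVN and MPOA. At chr20:21899001-21900000 both PVN and all arc libraries were occupied, with 3 of VMH, 2 of LH and none of MPOA. At chr6:33658001-33659000 all arc libraries were occupied with 2 each of LH, VMH and MPOA and 1 of PVN. All arc libraries thus carried each of these 4 windows, whereas the other regions varied.

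Members that lean on 1 nucleus were sought among those occupied in every library of a region, taking the lowest share in the other 4 regions. For LH these were chr6:35505001-35506000 and chr3:181882001-181883000, each occupied in all 4 LH libraries and in 6 of the other 12. For VMH, chr12:45838001-45839000 came first of the tied windows, and chr1:183510001-183511000 was likewise occupied in all 4 VMH libraries and in 6 of the other 12. For arc, both windows were among the 4 just described, as was 1 of those for PVN. The second PVN window, chr8:61060001-61061000, was occupied in both PVN libraries and in 8 of the other 14. For MPOA, chr15:113990001-113991000 and chr19:67583001-67584000 were occupied in all 3 MPOA libraries and in 7 of the other 13. The floor of 10 libraries fixes these lowest shares, and more members tied with those named for LH and VMH. Ties were settled by the share in the 76 other libraries and then by position, so the regions that the named windows lack are not a pattern of LH members.

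The occupancy that remained outside the 5 regions was uneven. The mean share of members occupied was 35.6% in VTA (ventral tegmental area, 5.17% to 62.9% over 4 libraries), 25.4% in MDT (mediodorsal thalamus) and 23.2% in MS (medial septum). It was 19.0% in CMA (centromedial amygdala), 17.4% in LS (lateral septum) and 16.7% in BNST (bed nucleus). Raphe stood at 11.4%, and every neocortical, accumbens and dentate gyrus region was under 3%. For comparison, windows occupied in 10 or more of the 92 libraries had shares of 53.7% in VTA and 40.9% in PLC (prelimbic cortex). In all, 406 members were occupied in at least 1 VTA library and 262 in at least 1 MDT library.

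In the regions with most of the remaining occupancy, FT libraries carried more members than Sham libraries. In VTA the FT libraries occupied 55.3% and 62.9% and the Sham libraries 18.9% and 5.17%. In MS they occupied 47.1% and 37.8% against 3.39% and 4.63%. The groups did not overlap in either region. The FT mean was higher in 17 of the 19 other regions, and every FT library lay above every Sham library in 15. Windows occupied in 10 or more libraries also had the higher FT mean in 18 of the 19 regions. For them every FT library lay above every Sham library in 13 regions, VTA and MS included. In VTA the FT lists held 46592 and 48259 peaks and the Sham lists 43051 and 32828. In MS they held 47277 and 46325 against 27508 and 27292. Per 10000 occupied windows of a library, members numbered 42.7 in FT and 10.6 in Sham in VTA, and 31.5 and 5.93 in MS. By this measure the FT mean was higher in 17 of the 19 regions, and every FT library lay above every Sham library in 14. The part of list length in these values was not tested.

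The 2 HB libraries were not used in the choice of members. FT HB occupied 251 of the 561 windows (44.7%), against 27.1% of all 284178 windows and 57.9% of windows occupied in 10 or more libraries. For windows chosen by the same rule for other parts of the brain, FT HB occupied 6.11% of 5021 neocortical windows (PLC, ILC, CGC and InsularCortex), 14.3% of 887 midbrain windows (VTA and PAG) and 15.4% of 603 septal windows (LS and MS). There is 1 FT HB library, so these shares have no replicate error. Sham HB occupied 0.357% of members and 0.956% of all windows and gives no usable second value.

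Whether the restriction holds in libraries that did not choose the windows was tested by applying the rule to libraries of 1 treatment or replicate number and measuring occupancy in the remaining ones. Choice and measurement shared regions, and the windows chosen for the 5 regions were kept while region labels were exchanged. The tests thus ask whether occupancy recurs in other libraries of these regions. They do not ask whether these 5 regions group together more than other sets of regions would. Chosen in the Sham libraries, 642 windows were occupied on average in 76.5% of cases over the FT means of the 5 regions and in 25.3% over the other 19 regions. The difference was 51.2 percentage points (exact permutation test of region labels, two-sided, p = 7.06e-05, adjusted over 4 such tests 0.000125). The order of regions was arc 88.3%, VMH 87.1%, MPOA 77.7%, LH 69.9% and PVN 59.3%. VTA at 66.0% and MS at 61.4% lay above PVN. Chosen in the FT libraries, 1154 windows were occupied at 38.5% in the Sham libraries of the 5 regions and 4.41% in the others, a difference of 34.1 points (exact permutation p = 9.41e-05, adjusted 0.000125). Here arc reached 79.0%, VMH 42.7%, PVN 33.4% and LH 29.3%, but MPOA was at 8.10%, below MDT at 15.8%.

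Choosing by replicate number gave the same direction. Chosen in replicate 2, 310 windows were occupied at 68.1% in replicate 1 of the 5 regions and 12.6% in the others. The difference was 55.5 points (exact permutation p = 2.35e-05, the smallest these arrangements can give, adjusted 9.41e-05). All 5 regions came above every other region in this case, from PVN at 44.7% to arc at 89.0%. Chosen in replicate 1, 1321 windows were occupied at 37.8% in replicate 2 of the 4 regions that have one and at 9.42% in the other regions, a difference of 28.4 points (exact permutation p = 0.00576, adjusted 0.00576). MPOA, measured in its shortest list, was the lowest of all regions at 2.65%. Which libraries were present moved the size of these differences. The FT-chosen difference was 6.56 points without Sham replicate 1 (exact permutation p = 0.0253), and the Sham-chosen one 27.7. The replicate 1 choice gave 8.35 points without FT replicate 2 (exact permutation p = 0.0227) and 49.1 without Sham replicate 2. The replicate 2 choice gave 29.8 without Sham replicate 2 and 30.1 without FT replicate 2. Regions of 1 replicate share animals, so these tests bear on these pools.

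**Figure D3:**
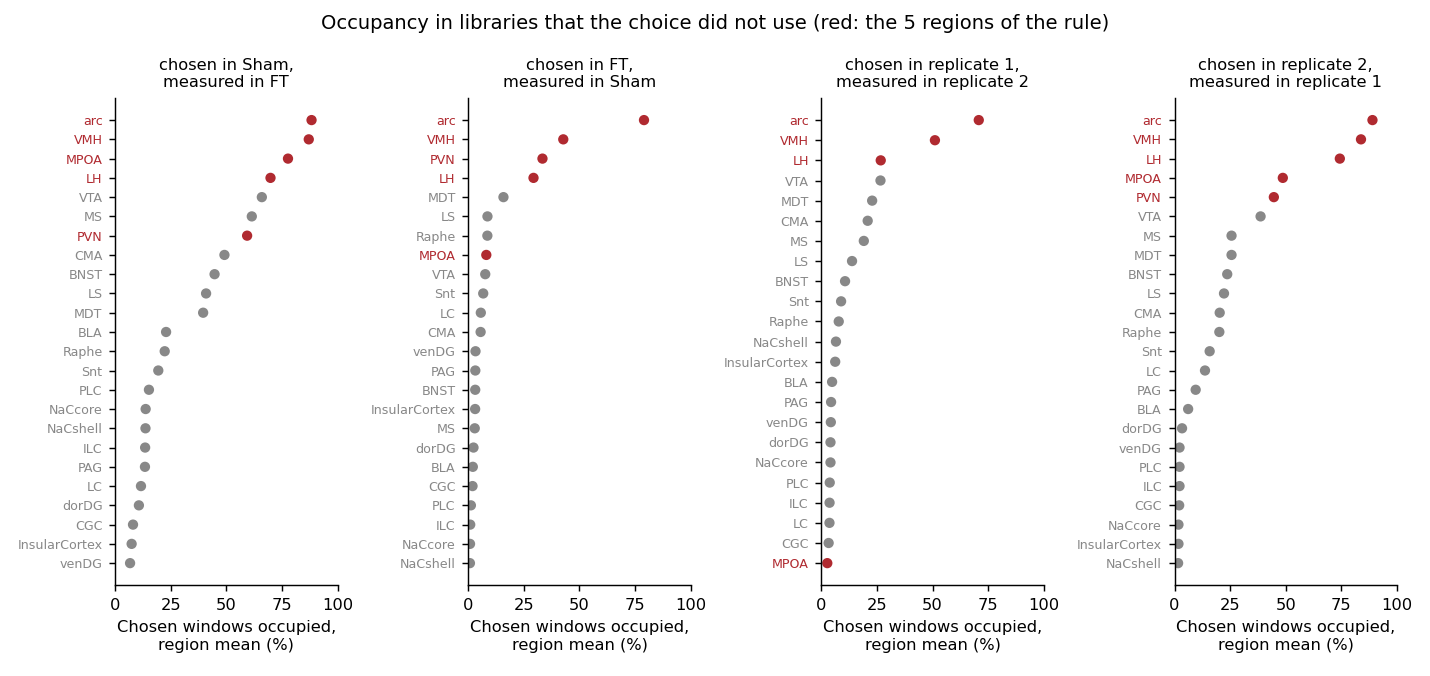
Mean share of chosen windows occupied (horizontal axis, %) in each region, measured in libraries that the choice did not use, for the 4 choices (panels); the regions of the rule are in red and the others in grey. The arc nucleus leads each panel, from 70.8% to 89.0%, whereas MPOA comes last in the panel measured in replicate 2.

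The libraries labelled PVN were about as similar to those of LS and VTA as to those of MDT, arc and VMH. Similarity of libraries was given by the Jaccard index, their shared windows over all windows that either of them occupied. The PVN libraries were nearest to each other, at 0.644. Next came MDT at a mean of 0.549 (0.535 to 0.563 over 8 pairs), arc at 0.533 (0.525 to 0.550 over 6 pairs), VTA at 0.530 and VMH at 0.528 (0.414 to 0.568). LS followed at 0.526 (0.376 to 0.583). These ranges overlapped. On lists of equal size LS and MDT both stood at 0.616, VMH at 0.613 and MS at 0.600. Windows chosen without the PVN libraries were compared next. Of 1608 windows restricted to LH, VMH and arc, the PVN libraries occupied 37.8% and 44.0%, MDT libraries 20.6% to 36.5%, and VTA libraries 6.97% to 61.3%. Of 5622 windows restricted to MDT, chosen with the 5 regions set aside, PVN libraries occupied 28.1% and 32.2%. LH reached at most 17.5%, arc 16.2%, VMH 14.6% and MPOA 10.01% of them. Both PVN libraries thus lay above every LH, VMH, arc and MPOA library on thalamic windows and above every MDT library on hypothalamic ones, on lists of equal size as well. The labels do not decide which nucleus was punched. With PVN left out of the rule and the comparisons, 602 windows were chosen, and 451 of them were among the 561 (80.4% of the 561 and 74.9% of the 602).

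The mean Jaccard index of MPOA with other regions was highest for VMH, at 0.480 (0.274 to 0.630 over 12 pairs), with VTA at 0.465, MS at 0.463 and BNST at 0.462. The MPOA libraries shared less with each other, at a mean of 0.400 (0.263 to 0.532 over 3 pairs). By single library, Sham MPOA replicate 1 was nearest to a Sham NaCshell (accumbens shell) library at 0.566. The FT MPOA library was nearest to an FT VTA library at 0.638. These neighbours changed on lists of equal size. Sham MPOA replicate 1 was then nearest to the FT MPOA library, at 0.667, and the FT MPOA library to an FT VMH library, at 0.684. The mean among MPOA libraries was then 0.523 (0.422 to 0.667), and that with VMH 0.569. On full lists the MPOA libraries occupied 3.17% to 63.1% of the 1608 windows restricted to LH, VMH and arc. On lists of equal size this range was 14.0% to 52.3% of 778 windows, against 22.8% to 31.0% in MDT, so the MPOA range spanned that of MDT. Without Sham MPOA replicate 2, 928 windows met the rule, and all 561 members were among them.

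Peaks over members were weaker than the peaks over all occupied windows of the same library. The strength of a peak was given as its percentile within its own list, ordered by −log10 p and then by score. Over occupied members the median percentile was 25.96 to 56.1 in the 16 libraries (median 40.8), whereas over all occupied windows of the same libraries it was 61.9 to 64.4. The median −log10 p of peaks over members was 8.79 (5.44 to 16.04 over libraries) against 18.9 for all occupied windows. Peaks above percentile 90 of their list covered 1.28% of occupied members in the median library and 15.1% of all occupied windows. The arc libraries had the strongest member peaks, at percentiles 54.3 (Sham), 56.1 and 49.1 (FT), and LH the weakest, between 25.96 and 32.6. For windows restricted to other parts of the brain, the median library had 49.7 for neocortex (30.8 to 61.6), 52.6 for midbrain (22.8 to 77.4) and 32.8 for septum (25.3 to 46.6). These medians were also under those of all occupied windows, but not every midbrain library was. Peaks above percentile 90 covered 17.3% of occupied midbrain windows in the median library, against 14.9% of all occupied windows.

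Peaks over members were also narrower, with a median width of 1450 bp against 1800 bp over all occupied windows (medians over 16 libraries). All occupied windows count a wide peak once per window, and the median peak width of the lists themselves was 1600 bp. The widths were 1450 against 1850 bp for septal, 1700 against 1900 bp for midbrain and 1700 against 1800 bp for neocortical windows. The centre of a peak fell within the window for 68.7% of occupied members in the median library (65.7% to 85.7%), against 59.2% of all occupied windows. This share was 62.6% against 59.3% for septal and 64.8% against 60.1% for neocortical windows. For midbrain windows it went the other way, at 54.5% against 57.2%. A peak of any extent touched 86.7% of members in the median library of the 5 regions, where 77.8% were occupied. In the other 76 libraries the medians were 16.9% touched and 4.63% occupied. The contrast between regions was thus smaller when the edges of peaks were counted.

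Members were scattered singly along the chromosomes. The 561 windows formed 537 loci of adjoining windows, of which 513 were single windows and 24 were pairs. Single windows made up 95.5% of member loci, beside 94.4% in the septal, 92.2% in the midbrain and 80.9% in the neocortical set. The longest locus had 2 windows in the septal set and 3 in the midbrain and neocortical sets. Of the members, 17.8% lay within 100 kb of another member, beside 56.8% of the 5021 neocortical, 30.1% of the 887 midbrain and 17.6% of the 603 septal windows. These shares rise with the number of windows in a set and are not comparable as rates. Of the paired loci, chr4:57806001-57808000 had the highest mean occupancy, at 14 of 16 libraries. It was followed by chr14:86874001-86876000 at 13.5 and chr1:103560001-103562000 at 13. The pair on chromosome 14 was occupied in all VMH, arc and PVN libraries. Pairs at chr10:46215001-46217000, chr1:228807001-228809000, chr4:1055001-1057000, chr11:41242001-41244000, chr12:16580001-16582000, chr12:45837001-45839000 and chr12:42919001-42921000 had means between 11.5 and 12.5 libraries. Of these, 3 lay on chromosome 12.

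The densest stretch of 500 kb was chr4:190000001-190500000 with 5 members, out of 78 windows occupied there in any library. Its members lay between 190094001 and 190321000, and all 3 arc libraries occupied each of them, whereas PVN libraries averaged 0.600 of 2. Among the next were chr1:103500001-104000000, chr3:161000001-161500000, chr4:57500001-58000000 and chr4:186000001-186500000 with 3 members each, and MPOA libraries occupied none of the members on chromosome 3. In all, 17 stretches held 3 members, 68 held 2 and 369 held 1. By chromosome, 8.91 members per 1000 windows occupied in 10 or more libraries were found on chromosome 12 (36 members) and 8.21 on chromosome 19 (30 members). The value over all chromosomes was 4.55, and the lowest was 3.41 on chromosome 1 (49 members).

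Members lay away from brain-wide windows. The median distance to a brain-wide window was 60 kb, with quartiles at 17 and 145 kb. It was 68 kb for neocortical, 48 kb for septal and 33 kb for midbrain windows, and 25 kb for windows occupied in 10 or more libraries but not brain-wide. A brain-wide window adjoined 26 members (4.63%), beside 14.8% of windows occupied in 10 or more libraries. It adjoined 4.98% of septal, 1.55% of neocortical and 9.70% of midbrain windows. A further comparison was the share over 100 kb away, at 34.0% of members against 20.7%. Promoters of widely used genes are acetylated in most tissues, but no gene annotation of Rn5 was used here, so neither promoters nor genes near members are named.

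**Figure D4:**
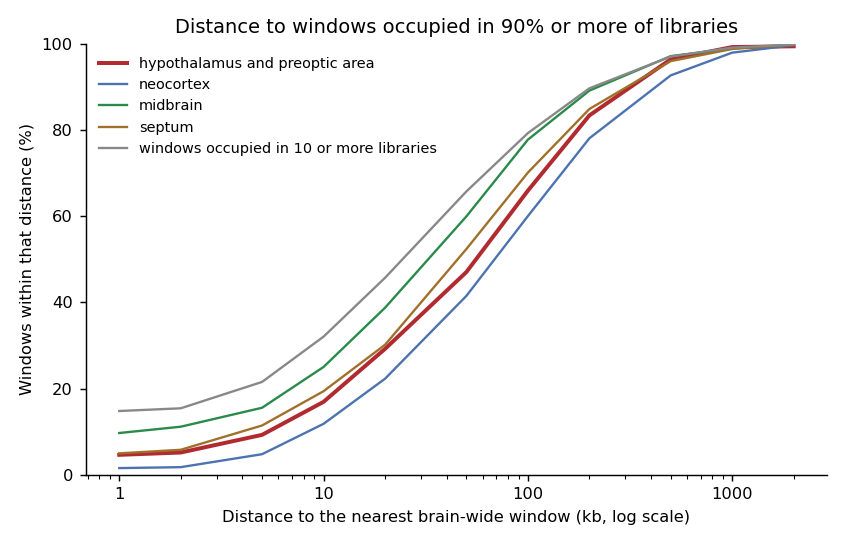
Share of windows (vertical axis, %) within a given distance (horizontal axis, kb, log scale) of a window occupied in 90% or more of the 92 libraries, for members (thick red), for windows chosen by the same rule for neocortex, midbrain and septum, and for windows occupied in 10 or more libraries. Within 100 kb lay 66.0% of members, beside 60.05% of neocortical and 77.8% of midbrain windows; the curves meet near 1000 kb.

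Fluoxetine was compared with vehicle over the 5 regions. The choice counted libraries of both treatments together and did not use which were FT, and exchanging FT and Sham labels within a region leaves the members the same. FT libraries occupied 80.0% of members on average over regions and Sham libraries 59.5%. The difference of 20.5 percentage points did not pass the test (exact permutation of treatment within region, two-sided, p = 0.105, adjusted over 3 measures 0.299). It was 61.9 points in MPOA, 21.1 in VMH, 14.5 in LH, 6.06 in PVN and −1.16 in arc. The groups overlapped in LH and in VMH, where 1 Sham library was above 1 or both FT libraries. On lists of equal size it was 4.76 points, with FT higher in 2 of the 5 regions (exact permutation p = 0.614). The value was 54.4 points without Sham replicate 1, 6.10 without Sham replicate 2 and 10.7 without FT replicate 1, and it was 10.2 with MPOA left out. All windows occupied in any of the 16 libraries had a difference of 10.9 points (exact permutation p = 0.0432, unadjusted), and 9.93 points with the replicate number as a block (exact permutation p = 0.0938). The sizes for members and for all windows are not comparable, since members had to meet a floor set on these same occupancies. The smallest p that the 648 arrangements allow is 0.00154. Regions of 1 replicate share a pool, whereas the arrangements exchange treatment in each region separately. These p-values, that for all windows included, may thus be too small for a difference between pools. The same limit applies to the other FT and Sham tests below and to the replicate block.

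Relative to list length the difference did not pass either. Per 10000 occupied windows, FT libraries carried 59.4 members and Sham libraries 52.0, a difference of 7.40 (exact permutation p = 0.299, adjusted 0.299). In arc the single Sham library stood at 70.1 between the FT libraries at 68.0 and 72.1. In VMH the FT libraries stood at 79.6 and 72.1 and the Sham libraries at 76.6 and 66.2, and the groups overlapped. In LH the FT values of 51.5 and 48.3 fell between the Sham values of 60.3 and 31.2. MPOA had 57.0 in FT against 39.4 and 10.9 in Sham, whereas PVN went the other way, with 44.1 in FT and 47.4 in Sham. On lists of equal size the mean difference was −1.65 per 10000, so its direction was not kept.

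**Figure D5:**
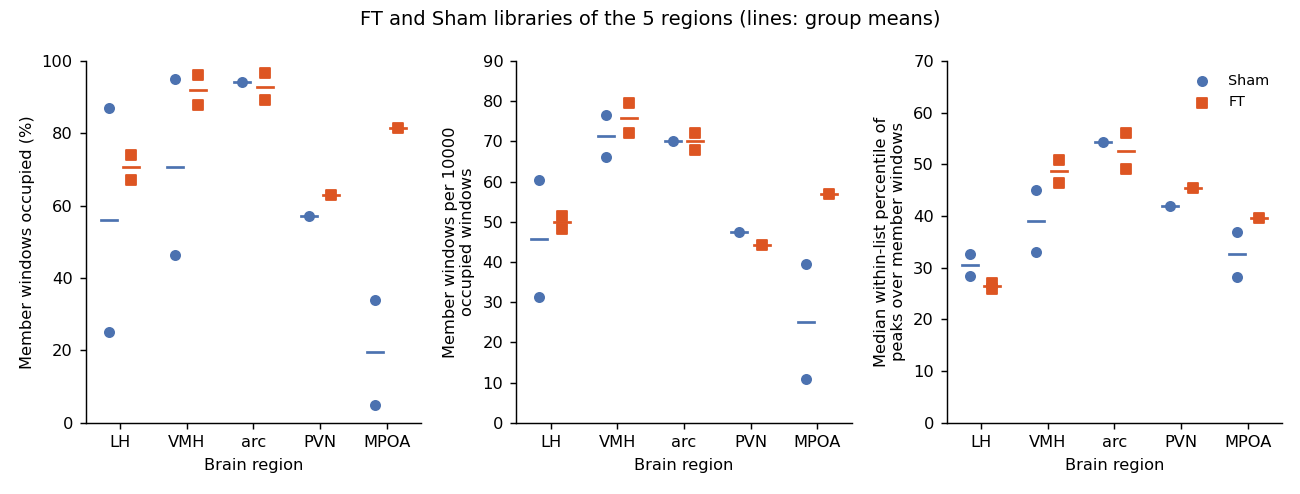
Member windows occupied (left, %), member windows per 10000 occupied windows of the library (centre) and median within-list percentile of the peaks over members (right) in Sham (circles) and FT (squares) libraries of the 5 regions; lines are group means. Sham and FT libraries overlap in LH and VMH in the left and centre panels, and the FT library of MPOA lies above both Sham libraries in all 3.

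The difference in peak strength over members did not pass the test. The median percentile was 42.6 in FT and 39.7 in Sham on average over regions, a difference of 2.87 (exact permutation p = 0.253, adjusted 0.299). In VMH it was 46.5 and 50.8 in FT against 45.1 and 33.1 in Sham. In LH it was 25.96 and 27.1 in FT against 32.6 and 28.3 in Sham. The FT libraries were thus above the Sham libraries in VMH and below them in LH. These percentiles cover the members that each list holds, and Sham VMH replicate 2 and Sham LH replicate 2 had the shortest lists of their regions. On lists of equal size the mean difference was −1.16.

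By window, the mean FT occupancy over regions was higher than the Sham mean at 457 members (81.5%), lower at 54 and equal at 50. Among all 157113 windows occupied in any of the 16 libraries it was higher at 60.5% and lower at 17.9%. The members with the largest excess in FT were chr9:84420001-84421000, chr17:52381001-52382000 and chr19:69334001-69335000, each occupied in all 8 FT and 2 of 8 Sham libraries. In the other direction, chr2:127247001-127248000 was occupied in 7 Sham and 4 FT libraries. The windows at chr2:237627001-237628000 and chr2:270160001-270161000 had 6 Sham and 4 FT libraries each. Nothing is read from the shares of members in each direction: a member needed 10 of the 16 libraries, and the lists of Sham MPOA replicate 2 and Sham LH replicate 2 held 4.99% and 25.1% of them, which leaves the floor to be met mostly by the others. The 6 windows just named were picked for their difference, which is therefore not tested.

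Few members separated the treatments within a nucleus. In LH, 18 of 548 members with any LH peak were present in both FT libraries and absent from both Sham libraries (3.28%), near the background of 3.92% of all windows with any LH peak. The reverse held for 11 members (2.01%), where the background was 0.478%. In VMH, 11 of 559 members were so separated (1.97%), under the background of 4.15%, and 3 were in the reverse (0.537%), near the background of 0.328%. Members had to meet the floor of 10 libraries, which counts these same libraries, whereas background windows did not. Nothing is therefore read from a share above or under its background. With 2 libraries against 2, no single window can be tested. The LH count of 11 fell to 2 when 800 bp had to be covered and to 6 on a grid shifted by 500 bp.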

How the data were processed

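Peak lists of H3K27ac ChIP-seq were analysed for 94 libraries (47 Sham, 47 FT) of 25 regions. The authors aligned reads to Rn5, with BWA listed in the submitters' processing notes (version not given in the sources used here), and ran DFilter per library without pooling replicates. The deposited lists give each peak's position and centre, a −log10 p-value from 4 to 200, a maximum score, a normalised tag count (a score rounded by the authors to whole numbers) and a false discovery rate that was deposited as a percent. The scores depend on the library and were used only as ranks within a list. A longer list and a more deeply sequenced library cannot be told apart.

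Starts were read as counting from 0, and positions are given counting from 1. Windows of 1 kb on chromosomes 1 to 20 were scored with Python 3.11.15, numpy 2.4.6 and pandas 2.3.3, and the code was checked on simulated data. The members and all lists and tests were chosen with earlier results of these data known. Named are the 10 loci with most adjoining members, the 10 windows with the largest difference in share, members in all 16 libraries (there were none), the 5 densest stretches of 500 kb, 2 windows leaning on each region, and 3 windows in each treatment direction. The 4 members without any other library were named after their values were seen.

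FT and Sham were compared by exact permutation within region. The study counted reads per peak, which lists do not hold. Its methods state that Sham and FT samples of a replicate were processed in parallel, so the replicate number was also used as a block. Deviations of same-numbered libraries over members correlated at 0.00460 in LH and −0.152 in VMH. Alternatives were equal-size lists, a −log10 p of 6 or more, coverage of 250 or 800 bp, a grid shifted by 500 bp, other thresholds, other treatment of PVN, each replicate left out and, chosen after seeing the data, MPOA or its shortest list left out and crossed numbers in VMH. The labels do not say whether replicates differ beyond their pools. Genes and sequences were not analysed, since no Rn5 genome was used here.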

Additional observations from a re-analysis of the deposited data

Results flagged for a closer look

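The FT HB library, which entered no comparison, occupied 44.7% of the 561 members, a share above that of windows restricted to neocortex, midbrain or septum in the same library. It is 1 library, and its Sham counterpart gave no usable value.

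The median within-list percentile of member peaks was higher in every FT than in every Sham library in VMH, and lower in LH. The FT minus Sham differences of these regions lay 13.6 percentile points apart, which was not tested, with 2 libraries against 2 in each region. The lists differ in length, from 27433 to 47541 peaks in VMH and from 32408 to 49887 in LH, and the part of length in these ranks was not tested. Over the 5 regions the mean difference turned to −1.16 on equal-size lists.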

How the results depend on the processing

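The 4 held-out differences passed the test in every alternative that was run. The 3 FT minus Sham differences passed in none, with or without the replicate block, which gave 18.2 points, 4.18 per 10000 and 3.97 percentile points (exact sign-flip over 7 pairs). With the VMH numbers crossed, 0 of 3 passed, as with the numbers as given. Per 10000 windows and percentile turned to −1.65 and −1.16 on equal-size lists, where all lists have 1 length by construction. The number of member windows (loci) was 296 (229) on equal-size lists, 341 (339) with 800 bp covered, 1517 (1424) at thresholds of 50% and 15%, 147 (142) at 70% and 15%, 219 (207) at 60% and 10%, and 971 (922) at 60% and 20%. It was 928 (881) without Sham MPOA replicate 2 and 1093 (1027) without MPOA, and 416 to 989 windows (400 to 935 loci) when 1 replicate of 1 treatment was left out. Members per 10000 then differed by −0.0842 (without FT replicate 1) to 15.5. The cause of these shifts was not tested.

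Counts of separating members were small and moved most. In LH, those of FT numbered 8 on equal-size lists, 32 without Sham MPOA replicate 2 and 46 without MPOA, and those of Sham 25 on equal-size lists, 4 at a −log10 p of 6 or more, 2 with 800 bp covered, 6 on the shifted grid and 19 without MPOA. In VMH, those of FT numbered 7 with 800 bp covered, 6 with PVN among the other regions, 31 without Sham MPOA replicate 2 and 43 without MPOA, and those of Sham 1 at a −log10 p of 6 or more, 0 on the shifted grid, 0 with PVN left out, 0 with PVN among the other regions and 5 without MPOA. With 1 replicate left out, where 1 library stands alone, the ranges were 9 to 173 and 14 to 164 in LH and 3 to 164 and 1 to 22 in VMH.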
